A study of Mus musculus with 24 samples.

Results

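The 36 members are genes of the secretory folding machinery and its stress sensors, chosen by their gene symbols. They comprised 8 chaperones and folding factors, 5 protein disulfide isomerases, 4 J proteins, 10 genes of ER-associated degradation (ERAD), 5 genes of the translocon at which proteins enter the ER, and 4 genes of stress sensing. The platform annotation named a probe for 33 members, and 28 of those had a probe detected on at least 2 of the 24 arrays (detection p-value under 0.01). These 28 were tested among 8969 genes. The probes of Canx, Derl1, Derl3, Ssr1 and Ern1 were not detected, and no probe was named for Sdf2l1, Dnajb11 or Atf6, so the sensors ATF6 and IRE1 (Ern1) themselves carried no measurement.

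The arrays profiled RNA of liver homogenates and of large liver tumors from male mice at 9 months of age. Mice were C57BL/6J (wild-type) or Chop-/-, a constitutive deletion of most of the CHOP reading frame that was backcrossed over many generations, and at day 15 of life they had received 1 injection of PBS or of 25 mg/kg of the carcinogen diethylnitrosamine (DEN). There were 3 wild-type PBS livers, 6 wild-type DEN livers, 3 wild-type tumors, 3 Chop-/- PBS livers, 7 Chop-/- DEN livers and 2 Chop-/- tumors. Tumors arose in DEN-treated mice, and DEN livers held nodular tissue together with tissue free of nodules. Nothing in the sources used here says whether a tumor and a liver came from the same animal, so p-values measure the spread between these samples.

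Proteins of the secretory pathway fold in the endoplasmic reticulum (ER) with the help of chaperones and disulfide isomerases, and chains that fail to fold are sent back to the cytosol and degraded through ERAD. When unfolded chains build up, the sensors IRE1, ATF6 and PERK start the unfolded protein response. IRE1 splices the Xbp1 mRNA, ATF6 is cut to an active factor, and PERK (Eif2ak3) phosphorylates eIF2α, which slows translation and favors translation of ATF4, upstream of CHOP (Ddit3). Hepatocytes secrete most plasma proteins and therefore hold a large ER. A probe that reads total Xbp1 mRNA does not tell the spliced form from the unspliced one.

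Promoters of this pathway are known for the ER stress response element (ERSE), a CCAAT box and a CCACG box held 9 bases apart, which ATF6 binds together with NF-Y. RefSeq promoter windows (GRCm38.p6, from 250 bases before to 50 bases after the gene start) were given for 30 of the 36 members, in 31 windows. The letters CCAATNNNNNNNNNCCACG, read on both strands, occurred in windows of 9 members (Hspa5, Calr, Derl3, Hsp90b1, Canx, Pdia6, Dnajc3, Creld2 and Syvn1), against 0.119% of all 32851 windows. The related ERSE-II letters ATTGGNCCACG occurred in Herpud1 and Dnajb11, against 0.0365% of all windows. The amino acid response letters TGATGCAA, known as a binding site of ATF4 and C/EBP factors, occurred in Herpud1 alone among the members, against 0.895% of all windows. The letters TGACGTGG, the core of the element that XBP1 binds, occurred in Vcp, against 0.676%. A match of letters is a description and was not measured as a bound site. The stretches are shown for the tested members with an ERSE or ERSE-II match, because the same genes carry the values described below. Capitals mark the matched letters, which in Herpud1 are the amino acid response element (on the opposite strand) followed by the ERSE-II, and in Hsp90b1 are an ERSE on each strand.
Hspa5, chr2:34772005-34772063, plus strand: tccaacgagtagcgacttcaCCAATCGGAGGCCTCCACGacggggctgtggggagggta
Hsp90b1, chr10:86705513-86705676, minus strand: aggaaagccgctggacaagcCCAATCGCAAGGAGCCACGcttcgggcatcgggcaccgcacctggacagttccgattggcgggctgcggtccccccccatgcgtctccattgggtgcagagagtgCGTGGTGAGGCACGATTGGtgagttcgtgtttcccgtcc
Pdia6, chr12:17266471-17266529, plus strand: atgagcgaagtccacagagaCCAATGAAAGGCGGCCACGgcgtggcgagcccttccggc
Creld2, chr15:88819500-88819558, plus strand: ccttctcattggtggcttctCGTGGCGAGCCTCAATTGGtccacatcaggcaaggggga
Calr, chr8:84847055-84847113, minus strand: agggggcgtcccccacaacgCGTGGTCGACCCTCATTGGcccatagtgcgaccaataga
Dnajc3, chr14:118937807-118937865, plus strand: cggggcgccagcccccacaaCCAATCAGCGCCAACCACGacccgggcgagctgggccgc
Syvn1, chr19:6046512-6046570, plus strand: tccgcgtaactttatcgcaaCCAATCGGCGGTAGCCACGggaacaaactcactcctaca
Herpud1, chr8:94386297-94386407, plus strand: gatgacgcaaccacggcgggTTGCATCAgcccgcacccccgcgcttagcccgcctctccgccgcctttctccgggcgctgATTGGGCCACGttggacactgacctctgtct

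A level is the log2 of the normalized probe intensity, and levels ran from 4.18, where a probe read background, to 15.18. Between 8953 and 11248 probes were detected per array. The arrays came in 3 sets of 8 (sets A, B and C by their array names), and every set held several groups. Ddit3 was detected on every wild-type array and on no Chop-/- array; where its probe lies relative to the deleted part was not checked. Array B_15, labelled Chop-/- DEN liver, correlated with the mean of the wild-type tumors at r = 0.9774, whereas the other Chop-/- DEN livers reached 0.9443 to 0.9569. The 2 Chop-/- tumors (arrays B_16 and C_24) correlated with each other at r = 0.9286, and 23 of the 28 members were lower in C_24 than in B_16. The 6 measured of 7 listed hepatocyte markers were detected in every group, and their summed level, which the very bright probes of Ttr and Apoa1 dominate, was 16.40 to 16.66. In bulk tissue, fewer cells of a type and less RNA per cell cannot be told apart.

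Wild-type tumors had higher levels of a set of folding and translocon genes than PBS livers of the same genotype, led by Dnajc10 and Pdia6, and no member was called lower. Of the 28 members, 7 were called higher (limma, adjusted p under 0.05): Hsp90b1, P4hb, Pdia4, Pdia6, Dnajc10, Ssr2 and Ssr3. Over all genes tested, 10.8% were called higher and 8.42% lower. The median log2 fold change of the 28 members was 0.40, with 21 above 0, beside a median of -0.001 over all genes. The 2 groups did not overlap in 8 members, the called ones except Pdia4 plus Sec61a1 and Xbp1, beside 27.6% of all genes. The count of 7 fell to 3 without array B_12 and to 4 without array A_08 or array C_17. It was 3 with array weights and 2 with only these groups in the fit.

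Against wild-type DEN livers, 7 members were again called higher in wild-type tumors and none lower: P4hb, Pdia6, Dnajb9, Dnajc10, Ssr2, Ssr3 and Eif2ak3. The shares over all genes were 12.1% higher and 10.2% lower, and the median was 0.31 for members and -0.01 for all genes. Both comparisons share the same 3 tumors. With array weights 13 members were called against DEN livers, counted in either direction. In Chop-/- tumors against Chop-/- DEN livers, 6 members were called higher (Pdia6, Dnajb9, Dnajc10, Ssr2, Ssr3 and Xbp1) and 4 lower (Hyou1, Pdia5, Herpud1 and Os9), where 19.1% of all genes were called higher and 20.3% lower. The members' shares were therefore close to those of all genes, with a median of 0.12 against -0.05. Without array B_16 the count of 10 fell to 3, all lower, without array C_24 to 6, and with array weights to 3. The remaining tumor is then assumed to vary like the other groups.

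Markers of other cell types moved with the tumors, and several lists moved in both directions. In wild-type tumors against PBS livers, Alb was called higher (log2 fold change 1.34, SE 0.29, adjusted p = 0.0021) and Cps1 lower (log2 fold change -1.25, SE 0.34, adjusted p = 0.0105) among the hepatocyte markers. Of 5 measured of 7 listed macrophage markers, 2 were called lower against PBS livers, 4 lower against wild-type DEN livers, and 4 lower in Chop-/- tumors against Chop-/- DEN livers. The general marker Adgre1 was called in none of these, at -0.13, 0.06 and 0.41. Clec4f and Vsig4 were the brightest of the 5 in whole livers, and Adgre1 was the brightest in Chop-/- tumors. The summed level of the 5 was 11.19 to 11.49 in wild-type PBS livers, 10.78 to 11.67 in wild-type DEN livers and 9.84 to 10.97 in wild-type tumors. It was 10.43 to 10.86 in Chop-/- DEN livers and 8.66 to 9.16 in Chop-/- tumors. Both measured of 4 listed neutrophil and monocyte markers, S100a8 and S100a9, were called higher in Chop-/- tumors against DEN livers, with a summed level of 7.85 to 11.65 against 6.29 to 8.31, and neither was called in wild-type tumors, at 7.35 to 7.65. Of 4 measured of 5 endothelial markers, Lyve1 and Pecam1 were called higher in all 3 comparisons, while Clec4g and Stab2 were called lower in Chop-/- tumors. The endothelial sum, which Clec4g dominates, was 10.68 to 11.63 in Chop-/- tumors, 11.89 to 12.29 in Chop-/- DEN livers, 11.84 to 12.88 in wild-type tumors and 11.98 to 12.33 in wild-type DEN livers.

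Of the 5 stellate cell markers, Col3a1 was called higher in all 3 comparisons and Col1a1 in both against DEN livers, whereas Lrat was called lower in wild-type tumors against PBS livers and in Chop-/- tumors, and Rgs5 lower in wild-type tumors against PBS livers. Their sum was 7.998 to 9.01 in wild-type PBS livers, 8.07 to 8.45 in wild-type DEN livers, 8.76 to 9.97 in wild-type tumors, 7.79 to 8.17 in Chop-/- DEN livers and 9.37 to 10.44 in Chop-/- tumors. Of 3 measured of 8 plasma and B cell markers, 1 was called, Sdc1 in Chop-/- tumors (log2 fold change 1.04, SE 0.30, adjusted p = 0.00751), and it was high on 1 of the tumors only, at 7.81 and 9.89. Of 2 measured of 4 listed cholangiocyte markers, Sox9 was called higher against DEN livers in both genotypes. The other, Krt7, was detected on no tumor and was not called, at -0.26 in wild-type and -0.30 in Chop-/- tumors against DEN livers. Neither measured T and NK cell marker was called. The part of these cells in the members' changes was not tested.

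**Figure D1:**
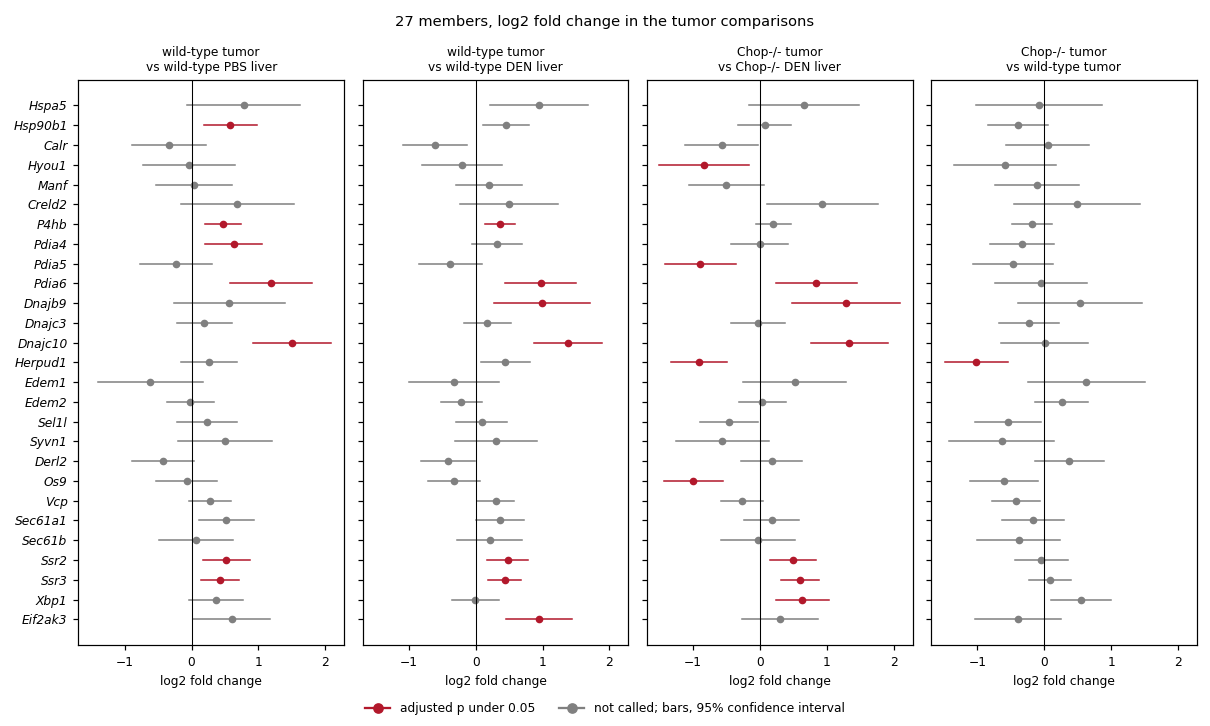
Log2 fold change (x axis, first group over second) of 27 members (rows, all those tested except Pdia3) in the 4 comparisons that involve tumors; points are limma estimates, bars are 95% confidence intervals, and red marks an adjusted p under 0.05. Dnajc10, Pdia6, Ssr2 and Ssr3 are red to the right of 0 in the first 3 panels, and Herpud1 is the only red member in the last, at -1.02.

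Among the chaperones, Hspa5 (BiP, the ER member of the Hsp70 family and the standard readout of ER stress) was called in no comparison. Its level was 7.54, 7.69 and 9.26 in the wild-type PBS livers and 8.80, 9.02 and 9.02 in the wild-type tumors. In wild-type DEN livers it was 7.42 to 8.64 with a median of 7.94. All 3 wild-type tumors lay above all 6 wild-type DEN livers, while 1 of the PBS livers, array B_09, exceeded every wild-type tumor. The differences were 0.94 (SE 0.35, adjusted p = 0.0592) against DEN livers, with an interval of 0.21 to 1.67, and 0.78 (SE 0.41, adjusted p = 0.201) against PBS livers. The exact permutation test, two-sided, of tumors against DEN livers gave p = 0.0119, the smallest that 3 against 6 allows. That value follows from the lack of overlap alone and was not adjusted over the members. In Chop-/- mice the level was 7.30, 7.49 and 7.71 in PBS livers, 7.07 to 8.79 with a median of 8.31 in DEN livers, and 8.32 and 9.41 in the tumors. The Chop-/- tumors thus differed by over 1 log2 unit from each other, and 0.66 (SE 0.40, adjusted p = 0.202) against DEN livers did not pass.

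Hsp90b1 (GRP94, the ER form of Hsp90) rose 1.5-fold in wild-type tumors over PBS livers. Its level was 12.93, 13.31 and 13.34 in the PBS livers and 13.61, 13.61 and 14.10 in the tumors, with no overlap (log2 fold change 0.58, SE 0.19, adjusted p = 0.0373). The call was lost without array A_04 or array C_17 (adjusted p = 0.17 and 0.169), and also with array weights (adjusted p = 0.103) and with only the compared groups in the fit (adjusted p = 0.195). Wild-type DEN livers had 13.04 to 13.48 with a median of 13.39, again below every tumor, and the difference missed the threshold at 0.45 (SE 0.17, adjusted p = 0.0584). Among Chop-/- mice the PBS livers had 13.02, 13.07 and 13.14, the DEN livers 12.95 to 13.61 with a median of 13.23, and the tumors 13.07 and 13.68. Only 1 of the Chop-/- tumors stood above the DEN livers, at 0.07 (SE 0.19, adjusted p = 0.799).

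Hyou1 (GRP170, a nucleotide exchange factor for BiP) read near background. It was detected on 17 of the 24 arrays. In Chop-/- tumors it was not detected, with measured levels of 4.70 and 4.95, whereas Chop-/- DEN livers had 5.06 to 6.32 with a median of 5.64. With each Chop-/- tumor array set to the lowest signal among its detected probes, where that was higher, the mean of the Chop-/- DEN livers was 1.35-fold brighter in these normalized values. Hyou1 was detected on 6 of the 7 Chop-/- DEN livers, and all 7 entered at their measured levels, so the value is not a strict lower bound. The measured difference was -0.84 (SE 0.33, adjusted p = 0.0446). It was -0.28 (SE 0.13, adjusted p = 0.0815) in the labelled log2 table, which adds a constant to every intensity. The call was lost in 6 of 10 alternatives, at adjusted p from 0.0571 to 0.341, and without any 1 of arrays A_06, B_14, B_16, C_20, C_21, C_22 and C_24 (adjusted p from 0.051 to 0.268). Wild-type PBS livers had 4.82, 5.38 and 6.14, wild-type DEN livers 4.93 to 6.06 with a median of 5.66, wild-type tumors 5.11, 5.46 and 5.67 and Chop-/- PBS livers 5.54, 5.94 and 6.19, so these groups overlapped. The other chaperones were Calr (calreticulin, a lectin chaperone), Creld2 and Manf, and none was called in any comparison. In Creld2 both Chop-/- tumors, at 10.44 and 10.47, stood above the Chop-/- DEN livers, at 8.72 to 10.23 with a median of 9.55, with 0.93 (SE 0.40, adjusted p = 0.0676). Calr was the chaperone with the lowest estimate in wild-type tumors against DEN livers, at -0.61 (SE 0.23, adjusted p = 0.0635). Manf was detected on 4 arrays, all of them Chop-/- DEN livers, at 5.13, 5.44, 5.85 and 5.88; Calr, Creld2 and Manf were named after their values were seen.

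**Figure D2:**
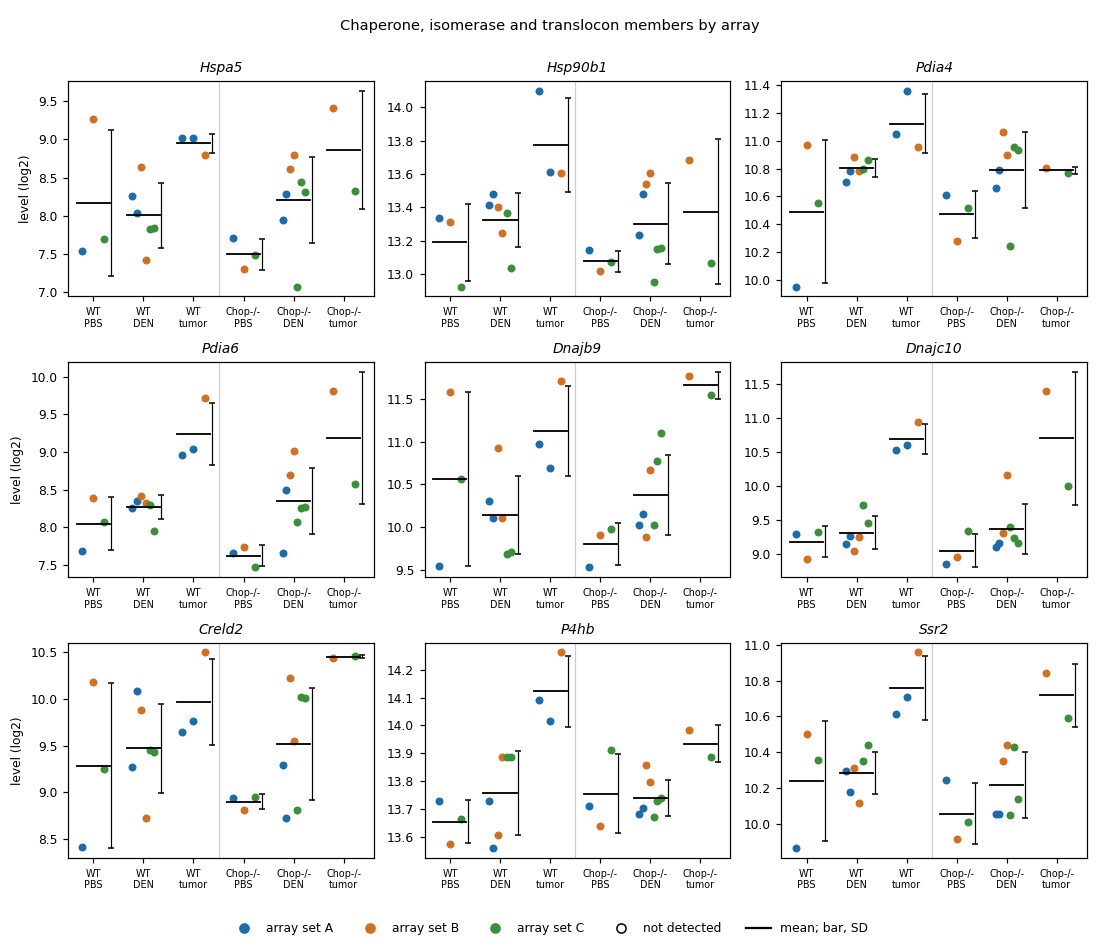
Level (y axis, log2 normalized intensity, with a separate scale for each panel) of 9 chaperone, isomerase and translocon members on the 24 arrays by group (x axis); each point is an array, colored by array set, lines are group means and bars are SD. In the Dnajc10 panel all 3 wild-type tumors lie above every wild-type liver, and in the Hspa5 panel the wild-type PBS liver of set B, at 9.26, lies far above the other 2.

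The disulfide isomerases, which form and rearrange the disulfide bonds of secreted proteins, split by member. Pdia6 rose in tumors of both genotypes, P4hb rose in wild-type tumors over both liver groups, and Pdia5 fell in Chop-/- tumors. Pdia4 was called higher in wild-type tumors against PBS livers only. The Pdia6 level was 7.69, 8.06 and 8.39 in wild-type PBS livers, 7.96 to 8.41 with a median of 8.31 in wild-type DEN livers and 8.96, 9.04 and 9.71 in wild-type tumors. Every wild-type tumor was above every wild-type liver, a 2.28-fold rise over PBS livers (log2 fold change 1.19, SE 0.30, adjusted p = 0.00653) and a 1.96-fold rise over DEN livers (log2 fold change 0.97, SE 0.26, adjusted p = 0.00869). Both calls were lost without array B_12, the highest tumor, at adjusted p = 0.0519 and 0.0904. On the Chop-/- arrays Pdia6 was 7.47, 7.66 and 7.74 in PBS livers, 7.66 to 9.01 with a median of 8.27 in DEN livers and 8.57 and 9.81 in tumors. The lower tumor lay inside the range of the DEN livers and the other above it (log2 fold change 0.84, SE 0.29, adjusted p = 0.0253). Without array B_16 the difference was 0.22 and the call was lost. It was also lost with array weights (adjusted p = 0.163) and with only the compared groups in the fit (adjusted p = 0.0906). A block by replicate number on the labelled log2 table ended it too (adjusted p = 0.0644).

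P4hb (the founding disulfide isomerase, PDI) had a small rise with little spread. Its level was 13.57, 13.66 and 13.73 in wild-type PBS livers, 13.56 to 13.89 with a median of 13.81 in wild-type DEN livers and 14.01, 14.09 and 14.26 in wild-type tumors. The tumors lay above both liver groups, by 1.38-fold over PBS livers (log2 fold change 0.47, SE 0.13, adjusted p = 0.0126) and 1.29-fold over DEN livers (log2 fold change 0.36, SE 0.11, adjusted p = 0.0214). With only the compared groups in the fit neither call held (adjusted p = 0.224 and 0.0953), and with array weights the first did not (adjusted p = 0.0532). Without array B_12 both were lost, at adjusted p = 0.0659 and 0.129. For Chop-/- mice, it was 13.64, 13.71 and 13.91 in PBS livers, 13.67 to 13.86 with a median of 13.73 in DEN livers and 13.89 and 13.98 in tumors, and the tumor difference of 0.20 (SE 0.13, adjusted p = 0.233) did not pass.

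Pdia4 (ERp72) was 9.95, 10.55 and 10.97 in wild-type PBS livers, 10.71 to 10.88 with a median of 10.79 in wild-type DEN livers and 10.95, 11.05 and 11.36 in wild-type tumors. The tumors and PBS livers overlapped, since PBS liver B_09 stood above the lowest tumor, although the difference was called (log2 fold change 0.63, SE 0.21, adjusted p = 0.0359). Within array sets it was 1.25 in set A and -0.02 in set B. The call was lost without any 1 of arrays A_01, A_04, A_08 and C_17 (adjusted p from 0.053 to 0.232), and also with only the compared groups in the fit (adjusted p = 0.241). Against wild-type DEN livers the wild-type tumors differed by 0.32, which was not called. In Chop-/- mice the PBS livers had 10.28, 10.52 and 10.61, the DEN livers 10.24 to 11.06 with a median of 10.89 and the tumors 10.77 and 10.81, and tumors and DEN livers differed by -0.003 (SE 0.20, adjusted p = 0.993), with an interval of -0.43 to 0.42.

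Pdia5 ran the other way. Its level was 9.53 to 10.65 with a median of 10.07 in Chop-/- DEN livers and 8.87 and 9.46 in Chop-/- tumors, with no overlap, a 1.86-fold fall (log2 fold change -0.89, SE 0.26, adjusted p = 0.00777). Its other detected probes gave -0.52 and -0.70 in the same comparison. The call was lost without array C_24 (adjusted p = 0.214), and also with array weights (adjusted p = 0.114). In wild-type mice the PBS livers had 9.48, 9.73 and 10.36, the DEN livers 9.81 to 10.19 with a median of 10.04 and the tumors 9.06, 9.90 and 9.92, and Chop-/- PBS livers had 9.36, 9.64 and 9.72. Wild-type tumors differed from DEN livers by -0.38 (SE 0.23, adjusted p = 0.256), and the tumor changes of the 2 genotypes were not shown to differ (interaction -0.52, SE 0.34, adjusted p = 0.399).

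Pdia3 (ERp57, the isomerase that works with calnexin and calreticulin) could be read on 21 of the 24 arrays, and it was singled out after its values were seen. On wild-type DEN arrays B_10 and B_11 and on Chop-/- DEN array B_14 its deposited intensity was below 0 and its level was between 4.18 and 4.19. On the remaining 21 arrays the level was 10.85 to 12.62. Such a reading was rare: of 1778 probes with a median intensity over 1000, 2 were below 0 on B_10, 2 on B_11, 1 on B_14, 1 on C_24 and none on any other array. With all arrays, wild-type tumors differed from DEN livers by 2.72 (SE 1.75, adjusted p = 0.296), and without the 3 arrays by 0.08 (SE 0.23, adjusted p = 0.872). Chop-/- DEN livers differed from Chop-/- PBS livers by -0.48 (SE 1.70, adjusted p = 0.952) with all arrays and by 0.65 (SE 0.22, adjusted p = 0.489) without the 3, a change of sign. No Pdia3 difference was called either way. Where the probe read above 0, the means were 11.75 ± 0.33 (SD, n = 3) in wild-type PBS livers, 12.10 ± 0.15 (SD, n = 4) in wild-type DEN livers, 12.18 ± 0.50 (SD, n = 3) in wild-type tumors, 11.40 ± 0.51 (SD, n = 3) in Chop-/- PBS livers, 12.05 ± 0.19 (SD, n = 6) in Chop-/- DEN livers and 12.01 ± 0.17 (SD, n = 2) in Chop-/- tumors.

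**Figure D3:**
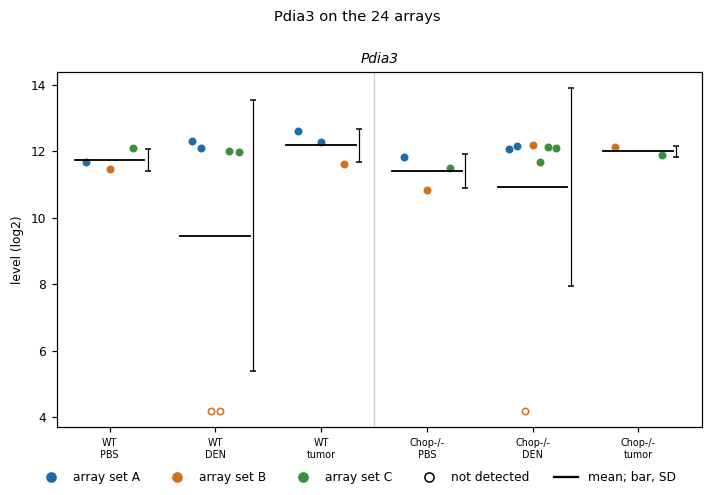
Level of Pdia3 (y axis, log2 normalized intensity) on the 24 arrays by group (x axis); points are arrays colored by array set, open points were not detected, lines are means and bars SD over all arrays of a group. The 3 open points, all DEN livers of set B, sit near 4.2 while the other 21 arrays sit between 10.85 and 12.62.

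The J proteins, which bring substrates to BiP and drive its ATPase, held the largest change among the members. Dnajc10 (ERdj5, a reductase that opens disulfide bonds of ERAD clients) was 8.92, 9.30 and 9.33 in wild-type PBS livers, 9.05 to 9.73 with a median of 9.26 in wild-type DEN livers and 10.53, 10.61 and 10.93 in wild-type tumors. All 3 tumors exceeded every wild-type liver, by 2.84-fold over PBS livers (log2 fold change 1.51, SE 0.28, adjusted p = 0.000566) and 2.59-fold over DEN livers (log2 fold change 1.38, SE 0.24, adjusted p = 0.000273). Both calls held without any single array. Among Chop-/- mice Dnajc10 was 8.86, 8.96 and 9.33 in PBS livers, 9.10 to 10.17 with a median of 9.24 in DEN livers and 10.005 and 11.39 in tumors, a 2.52-fold rise (log2 fold change 1.33, SE 0.28, adjusted p = 0.000571). The highest Chop-/- DEN liver, array B_15, exceeded the lower tumor. Without tumor array B_16 the difference was 0.64 (adjusted p = 0.098). The rise did not differ between genotypes by its test (interaction -0.04, SE 0.37, adjusted p = 0.969, interval -0.81 to 0.72). A second Dnajc10 probe was detected on no array.

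Dnajb9 (ERdj4, a co-chaperone of BiP and a target of XBP1) was 9.55, 10.56 and 11.59 in wild-type PBS livers, 9.69 to 10.92 with a median of 10.11 in wild-type DEN livers and 10.69, 10.98 and 11.71 in wild-type tumors. The PBS livers alone spanned about the whole range of the gene, from array A_01 at the bottom to array B_09 near the top. Tumors differed from DEN livers by 0.99 (SE 0.35, adjusted p = 0.0426), and 1 DEN liver overlapped the tumors. That call was lost without any 1 of arrays A_02, A_03, A_04, B_11, B_12, C_18 and C_19 (adjusted p from 0.0517 to 0.254). It was also lost with no filter on dim probes (adjusted p = 0.081) and with array weights (adjusted p = 0.0848). A block by replicate number on the labelled log2 table ended it too (adjusted p = 0.0834). With array weights the estimate was 0.63. Against PBS livers the difference was 0.56 (SE 0.40, adjusted p = 0.368). On the Chop-/- arrays the PBS livers had 9.52, 9.90 and 9.98, the DEN livers 9.89 to 11.10 with a median of 10.16 and the tumors 11.55 and 11.78, and both tumors were above all 7 DEN livers (log2 fold change 1.29, SE 0.39, adjusted p = 0.0116). The call was lost when 1 tumor remained, at a difference of 1.18 without array B_16 and 1.40 without array C_24. With both tumors and array weights it was lost as well (adjusted p = 0.147). Dnajc3 (p58IPK, a co-chaperone first described as an inhibitor of the kinase PKR) stayed between 9.66 and 10.67 on all arrays, and it was called in no comparison. Its tumor differences were 0.19 (SE 0.20, adjusted p = 0.555) in wild-type mice against PBS livers, 0.17 (SE 0.17, adjusted p = 0.535) against DEN livers and -0.03 (SE 0.19, adjusted p = 0.922) in Chop-/- mice against DEN livers.

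Of the 8 tested ERAD members none was called in wild-type tumors against either liver group. Over all genes, 10.8% were called higher and 8.42% lower against PBS livers, and 12.1% and 10.2% against DEN livers. In Chop-/- tumors against Chop-/- DEN livers 2 of the 8, Herpud1 and Os9, were called lower and none higher. There 20.3% of all genes were called lower and 19.1% higher, so these counts do not set the ERAD members apart. Herpud1 (HERP, a scaffold of the HRD1 ligase complex in the ER membrane) was the only member called between tumors of the 2 genotypes. This was 1 of 28 members, a smaller share than over all genes, and the other members were not shown to be alike. The Herpud1 level was 13.19, 13.66 and 13.87 in wild-type tumors and 12.24 and 12.87 in Chop-/- tumors. The groups did not overlap, and Chop-/- tumors were 2.02-fold lower (log2 fold change -1.02, SE 0.23, adjusted p = 0.00672), where 10.5% of all genes were called in either direction. A second Herpud1 probe gave -1.08. The exact permutation test, two-sided, gave p = 0.1, the smallest that 3 against 2 allows. The whole livers overlapped: the level was 13.06, 13.42 and 13.46 in wild-type PBS livers, 13.28, 13.31 and 13.46 in Chop-/- PBS livers, 12.73 to 13.38 with a median of 13.16 in wild-type DEN livers and 13.26 to 13.81 with a median of 13.44 in Chop-/- DEN livers.

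Against DEN livers of their own genotype, the tumors gave Herpud1 estimates of opposite sign. The difference was 0.44 (SE 0.18, adjusted p = 0.0758) in wild-type tumors, which was not called, and a 1.88-fold fall in Chop-/- tumors (log2 fold change -0.91, SE 0.20, adjusted p = 0.000892). The test of the difference itself, genotype by tumor against DEN liver, called Herpud1 alone among the members (log2 fold change -1.36, SE 0.27, adjusted p = 0.00561), beside 4.69% of all genes. Array C_24 stood apart from the other tumor, and these calls rested on it. Without it the tumor difference between genotypes was -0.70 (adjusted p = 0.234), the fall within Chop-/- mice -0.60 (adjusted p = 0.089) and the interaction -1.04 (adjusted p = 0.128). With array weights the fall within Chop-/- mice had an adjusted p of 0.0502. The call between tumors also ended with array weights (adjusted p = 0.0617) and with only these groups in the fit (adjusted p = 0.373). Within array set B, the only set with tumors of both genotypes, the level was 12.87 in the Chop-/- tumor and 13.19 in the wild-type tumor. The summed level of 2 measured of 4 listed neutrophil and monocyte markers was 7.85 to 11.65 there and 7.35 to 7.65 in wild-type tumors. For 5 measured of 7 listed macrophage markers it was 8.66 to 9.16 against 9.84 to 10.97, and 2 of these 5 were undetected on both Chop-/- tumors. The part of these cells in the result was not tested.

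Os9 (a lectin that delivers glycoproteins to the HRD1 complex) was 10.76, 10.82 and 11.003 in Chop-/- PBS livers, 10.24 to 10.96 with a median of 10.86 in Chop-/- DEN livers and 9.75 and 9.79 in Chop-/- tumors. Both tumors were below every Chop-/- liver, and the fall was 2-fold (log2 fold change -0.997, SE 0.22, adjusted p = 0.000812). It held without any single array. Wild-type PBS livers had 9.95, 10.38 and 11.003, wild-type DEN livers 10.42 to 11.04 with a median of 10.70 and wild-type tumors 10.19, 10.40 and 10.53, with -0.33 (SE 0.19, adjusted p = 0.243) for tumors against DEN livers. The genotypes were not shown to differ in this change (interaction -0.67, SE 0.29, adjusted p = 0.172). Os9 (chr10:127094259-127121160, GRCm38.p6) lies 169.6 kb from Ddit3, the deleted gene, so an effect of the deletion on Os9 and of strain sequence carried along with it cannot be told apart in a comparison of genotypes. Hsp90b1 is on the same chromosome, 40585.3 kb away. In PBS livers Os9 differed between genotypes by 0.42 (SE 0.22, adjusted p = 0.499) and in DEN livers by 0.06 (SE 0.15, adjusted p = 1).

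Edem1, a lectin of the mannose-trimming step, read near background and was detected on 15 of the 24 arrays. Its level was 4.84, 6.21 and 6.36 in wild-type PBS livers, 4.98 to 5.89 with a median of 5.71 in wild-type DEN livers, 4.62, 5.27 and 5.68 in wild-type tumors, 5.02, 5.03 and 5.70 in Chop-/- PBS livers, 4.70 to 5.65 with a median of 5.51 in Chop-/- DEN livers and 5.24 and 6.40 in Chop-/- tumors. The lowest and highest arrays fell in different groups, and no comparison was called. The other ERAD members were Edem2, Sel1l (the partner of HRD1), Syvn1 (HRD1, the ubiquitin ligase itself), Derl2 (a channel subunit) and Vcp (p97, the ATPase that pulls clients into the cytosol). None was called in any comparison. Their estimates in wild-type tumors against DEN livers ran from -0.41 for Derl2 to 0.31 for Syvn1. In Chop-/- tumors against wild-type tumors they ran from -0.64 for Syvn1 to 0.37 for Derl2, and the median of the 8 ERAD members was -0.49, beside -0.03 for all genes.

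**Figure D4:**
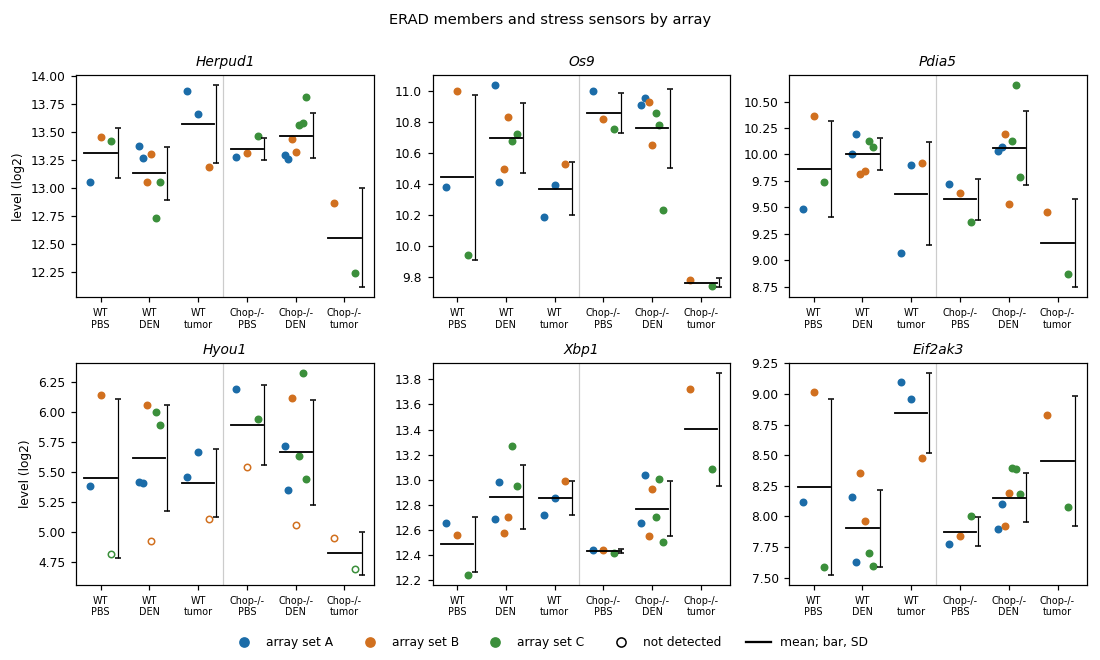
Level (y axis, log2 normalized intensity, separate scales) of Herpud1, Os9, Pdia5, Hyou1, Xbp1 and Eif2ak3 on the 24 arrays by group (x axis); points are arrays colored by array set, open points were not detected, lines are means and bars SD. Both Chop-/- tumors lie below all other groups' arrays for Os9, and for Herpud1 C_24 at 12.24 is the lowest array and B_16 at 12.87 the next lowest but for 1 wild-type DEN liver at 12.73.

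Of the 4 tested translocon members, Ssr2 and Ssr3 rose in tumors of both genotypes, by less than 1 log2 unit. Ssr2 and Ssr3 encode subunits of the translocon-associated protein complex, which helps nascent chains through the channel. Ssr3 was 12.01, 12.15 and 12.16 in wild-type PBS livers, 11.88 to 12.35 with a median of 12.14 in wild-type DEN livers and 12.47, 12.47 and 12.66 in wild-type tumors. The tumors exceeded all wild-type livers, by 1.34-fold over PBS livers (log2 fold change 0.43, SE 0.14, adjusted p = 0.0325) and 1.35-fold over DEN livers (log2 fold change 0.43, SE 0.12, adjusted p = 0.0114). The first call was lost without any 1 of arrays A_01, A_04, A_08, B_09, B_12 and C_17 (adjusted p from 0.0512 to 0.106), and also with array weights (adjusted p = 0.0572) and with only the compared groups in the fit (adjusted p = 0.269) and the second without array A_04 (adjusted p = 0.0615), and also with only the compared groups in the fit (adjusted p = 0.0587). For Chop-/- mice, Ssr3 was 11.84, 11.90 and 12.01 in PBS livers, 11.92 to 12.16 with a median of 12.02 in DEN livers and 12.45 and 12.79 in tumors, a 1.52-fold rise (log2 fold change 0.60, SE 0.14, adjusted p = 0.00121). That call was lost without array B_16 (adjusted p = 0.0516).

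Ssr2 was 9.87, 10.36 and 10.50 in wild-type PBS livers, 10.12 to 10.44 with a median of 10.30 in wild-type DEN livers and 10.61, 10.71 and 10.96 in wild-type tumors. The tumors again lay above every wild-type liver, with 0.52 (SE 0.17, adjusted p = 0.0342) against PBS livers and 0.47 (SE 0.15, adjusted p = 0.022) against DEN livers. The first was lost without any 1 of arrays A_01, A_08 and B_12 (adjusted p from 0.0611 to 0.199), and also with array weights (adjusted p = 0.0693) and with only the compared groups in the fit (adjusted p = 0.258) and the second without array B_12 (adjusted p = 0.141). In Chop-/- mice Ssr2 was 9.92, 10.01 and 10.25 in PBS livers, 10.05 to 10.44 with a median of 10.14 in DEN livers and 10.59 and 10.84 in tumors (log2 fold change 0.50, SE 0.17, adjusted p = 0.0207), a call lost without array B_16 (adjusted p = 0.191), and also with array weights (adjusted p = 0.189). The channel subunits Sec61a1 and Sec61b were not called in any comparison. For Sec61a1 the wild-type tumors did not overlap the PBS livers, at 0.52 (SE 0.20, adjusted p = 0.0708), and Sec61b gave 0.07 (SE 0.27, adjusted p = 0.9).

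Of the sensors only PERK could be read. Eif2ak3 was 7.59, 8.12 and 9.01 in wild-type PBS livers, 7.59 to 8.36 with a median of 7.83 in wild-type DEN livers and 8.47, 8.96 and 9.10 in wild-type tumors. Every tumor was above every DEN liver, and the rise was 1.92-fold (log2 fold change 0.94, SE 0.24, adjusted p = 0.00633), a call that held without any single array. PBS liver B_09 overlapped the tumors, and the difference from PBS livers was 0.60 (SE 0.28, adjusted p = 0.14). Among Chop-/- mice Eif2ak3 was 7.77, 7.84 and 8.004 in PBS livers, 7.90 to 8.39 with a median of 8.19 in DEN livers and 8.08 and 8.83 in tumors, and 0.30 (SE 0.27, adjusted p = 0.404) against DEN livers did not pass. The genotypes were not shown to differ (interaction -0.64, SE 0.36, adjusted p = 0.309). Xbp1, the transcription factor whose mRNA IRE1 splices, was 12.24, 12.56 and 12.65 in wild-type PBS livers, 12.57 to 13.26 with a median of 12.82 in wild-type DEN livers and 12.72, 12.85 and 12.99 in wild-type tumors. Tumors and DEN livers overlapped (log2 fold change -0.01, SE 0.17, adjusted p = 0.986). On the Chop-/- arrays Xbp1 was 12.41, 12.43 and 12.44 in PBS livers, 12.50 to 13.04 with a median of 12.70 in DEN livers and 13.08 and 13.72 in tumors. Both tumors thus exceeded all Chop-/- livers, and the difference from Chop-/- DEN livers was called (log2 fold change 0.63, SE 0.19, adjusted p = 0.0107). The call was lost without array B_16 (adjusted p = 0.31), and also with array weights (adjusted p = 0.208), and the interaction was 0.64 (SE 0.25, adjusted p = 0.14).

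No member differed past the threshold between whole livers. None was called between DEN and PBS livers in wild-type mice, beside 0% of all genes, and 1 member had an unadjusted p under 0.05 (Xbp1: log2 fold change 0.38, SE 0.17, adjusted p = 1). For Chop-/- mice, no member was called either, beside 0.0223% of all genes, and 4 had an unadjusted p under 0.05. The lowest p of these was that of Pdia6, at 0.73 (SE 0.25, adjusted p = 0.501) with an interval of 0.21 to 1.25. Between genotypes no member was called in PBS livers (0.0223% of all genes), where none had an unadjusted p under 0.05 and the groups did not overlap in 1 member, Sec61a1, beside 14.7% of all genes. In DEN livers no member was called (0.0223% of all genes), and Herpud1 had an unadjusted p under 0.05, at 0.34 (SE 0.14, adjusted p = 1). Manf did as well, at 0.59 (SE 0.19, adjusted p = 1), but it was detected on Chop-/- DEN livers only. It passed the detection filter through that group, so its differences from other groups there are no support for a change. The interaction of genotype with DEN called no member (0% of all genes), with none under 0.05 unadjusted. Intervals were wide for the stress-responsive members: for Hspa5 the genotype difference in PBS livers was -0.67 with an interval of -1.51 to 0.18.

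The median SD over the members was 0.34 in the 3 wild-type PBS livers, beside 0.30 over all genes, and 0.17 in Chop-/- PBS livers, beside 0.18 over all genes. Other groups lay between these, with 0.33 in the Chop-/- tumors. Array B_09 held the highest value of its group in 17 of the 28 members and array A_01 the lowest in 14. On B_09 the level was 9.26 for Hspa5, 11.59 for Dnajb9, 10.18 for Creld2 and 9.01 for Eif2ak3. The other wild-type PBS livers had 7.54 and 7.69 for Hspa5, 9.55 and 10.56 for Dnajb9, 8.42 and 9.26 for Creld2, and 7.59 and 8.12 for Eif2ak3. B_09 was thus inside or above the range of the wild-type tumors for Hspa5, Dnajb9, Creld2 and Eif2ak3. For Dnajc10, Ssr3 and P4hb it was not: its levels of 8.92, 12.15 and 13.57 were below every wild-type tumor. Creld2, a secreted folding factor and known ER stress target, was added here after its values were seen.

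**Figure D5:**
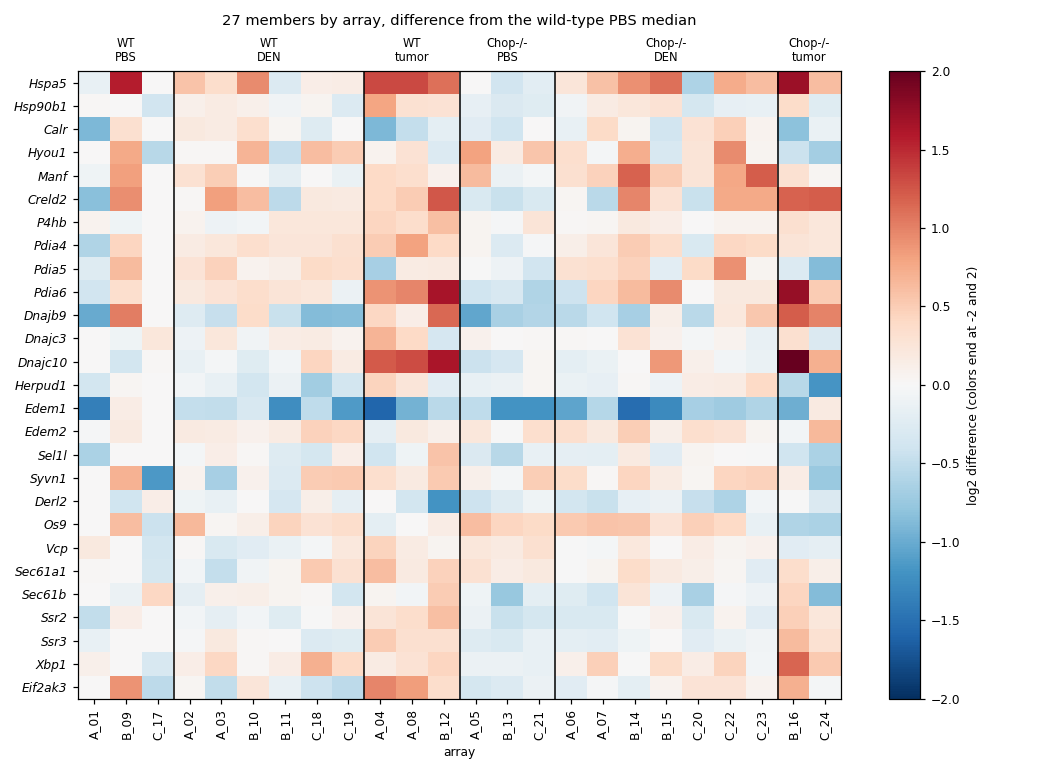
Difference of each level from the median of the wild-type PBS livers (color, log2) for 27 members (rows, without Pdia3) on each of the 24 arrays (columns, grouped as labelled above). Rows Pdia6 and Dnajc10 are red in all 5 tumors, Hspa5 is red on B_09 among the PBS livers as well as in tumors, and the Herpud1 row is darkest blue on C_24.

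Set beside the promoters, called members occurred both with and without an ERSE. Of the 7 tested members with the element, 2 (Hsp90b1 and Pdia6) were called higher in wild-type tumors than in PBS livers, with a median of 0.58. Among the 17 tested members with a promoter window and no element, 4 were called higher, with a median of 0.28. Of the 4 tested members without a window, 1 was called higher, and over all genes 10.8% were. Against DEN livers, 1 of 7 and 5 of 17 were called higher, with medians of 0.45 and 0.30. There 1 of the 4 members without a window was called higher, beside 12.1% of all genes. Dnajc10, which lacks the element, had an estimate of 1.51 in wild-type tumors against PBS livers. Hspa5 and Hsp90b1, which share the element, had 0.78 and 0.58. The part of the element in these changes was not tested. Herpud1 was the only member with both an ERSE-II and an amino acid response element in its window. It was also the only member called between tumors of the 2 genotypes, a call that rested on array C_24. A link between these letters and that call was not tested.

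Genes next to the members in the pathway were counted over whole lists. Of the other ER folding genes, 6 of 25 measured (of 36 listed) were called higher and 2 lower in wild-type tumors against PBS livers, 5 and 4 against DEN livers, and 7 and 2 in Chop-/- tumors against DEN livers. Over all genes, 10.8% and 8.42%, 12.1% and 10.2%, and 19.1% and 20.3% were called higher and lower in these comparisons. The medians of the folding list were 0.06, 0.17 and 0.07. Fkbp11, an ER prolyl isomerase, differed by 2.41 (SE 0.40, adjusted p = 0.000181) in wild-type tumors against PBS livers, and Calu, a calcium-binding ER protein, by 0.98 (SE 0.16, adjusted p = 0.000117) against DEN livers. Of the translocon, glycosylation and signal peptidase genes, 6 of 25 measured (of 30 listed) were called higher and 0 lower in wild-type tumors against PBS livers, 10 and 0 against DEN livers, and 15 and 0 in Chop-/- tumors against DEN livers. The medians of this list were 0.34, 0.31 and 0.57 in these comparisons, beside -0.001, -0.01 and -0.05 over all genes. Among them were Stt3b, a catalytic subunit of oligosaccharyltransferase, at 0.72 (SE 0.13, adjusted p = 0.00039) in wild-type tumors against DEN livers, and Srp14, of the signal recognition particle, at 1.005 (SE 0.18, adjusted p = 0.000115) in Chop-/- tumors.

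In the lists that follow, shares are read beside the shares of all genes given above (10.8% and 8.42%, 12.1% and 10.2%, and 19.1% and 20.3% called higher and lower). Of the other ERAD genes, 5 of 25 measured (of 33 listed) were called higher and 3 lower in wild-type tumors against PBS livers, 4 and 3 against DEN livers, and 4 and 3 in Chop-/- tumors against DEN livers, so the counts in Chop-/- tumors were below those shares. Rnf5, an ER ubiquitin ligase, fell in all 3, with -0.80 (SE 0.18, adjusted p = 0.00272) in wild-type tumors against PBS livers, and Rnf185, a related ligase, was lower in Chop-/- than in wild-type tumors at -0.64 (SE 0.15, adjusted p = 0.00941). Of the ER exit and COPII genes, 4 of 20 measured (of 22 listed) were called higher and 1 lower in wild-type tumors against PBS livers, 3 and 1 against DEN livers, and 3 and 2 in Chop-/- tumors against DEN livers. Of the other UPR signaling genes, 2 of 14 measured (of 19 listed) were called higher and 0 lower in wild-type tumors against PBS livers, 2 and 1 against DEN livers, and 3 and 6 in Chop-/- tumors against DEN livers. Bhlha15 (MIST1, a secretory cell factor downstream of XBP1) was called higher in all 3, at 1.77 (SE 0.39, adjusted p = 0.00191) in wild-type and 2.28 (SE 0.44, adjusted p = 0.000291) in Chop-/- tumors against DEN livers, while Atf6b fell in Chop-/- tumors at -0.73 (SE 0.20, adjusted p = 0.0048).

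The PERK and ATF4 targets outside the members were called more often in one direction: 10 of 24 measured (of 26 listed) were called higher and 1 lower in wild-type tumors against PBS livers, 10 and 2 against DEN livers, and 13 and 1 in Chop-/- tumors against DEN livers. The list's medians were 0.54, 0.57 and 0.78, beside 0.40, 0.31 and 0.12 for the 28 members. Nupr1, a stress-induced nuclear protein, differed by 4.26 (SE 0.39, adjusted p = 6.75e-07) and Atf3, a transcription factor of the same branch, by 3.02 (SE 0.32, adjusted p = 3.2e-06) in wild-type tumors against PBS livers, against 1.51 for Dnajc10, the largest of the members. Between Chop-/- and wild-type tumors, 1 of these 24 targets was called higher and 2 lower, beside 0 and 1 of the 28 members. In that comparison 10.5% of all genes were called in either direction, so the targets' count was near that share.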

How the data were processed

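RNA of 24 samples was hybridized to 1-color Illumina MouseRef-8 v2.0 BeadChips. The authors deposited average probe intensities, for which the submitters' processing notes name GenomeStudio 2011.1, and a detection p-value per probe and array. Of the intensities of 25697 probes, 26.88% were below 0, so a background had been subtracted. The authors also deposited a log2 table of the same arrays, labelled by sample. A further 48 columns of bead counts and bead errors were not used. Intensity columns carry array names only. Their groups were read from the headings over the same array names in the study's table of normalized values, and every array correlated best with a distinct sample of the same group in the labelled log2 table (24 of 24). Intensities were corrected with limma 3.58.1 in R 4.3.3 (neqc: normexp from the detection p-values, quantile normalization, offset 16).

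Probes were named from the platform annotation (23978 with 1 gene symbol, 1719 with none), kept when detected (p-value under 0.01) on at least 2 arrays (12707 probes), and reduced to the brightest probe of each gene, which gave 8969 genes. A model of 6 group means over all 24 arrays was fitted with lmFit and eBayes, and p-values were adjusted by Benjamini-Hochberg over all genes. Single members were compared with an exact permutation test over arrays. Intervals cover 95%. The number of arrays per group limits the precision. The procedure was tested on simulated data. The alternatives concerned background, normalization, the filter, the probe of a gene, array set, array weights, the samples fitted, the labelled log2 table and each array left out. Values by sample are given for the 14 members called in any comparison, for those the study measured by PCR, for sensors and for members on the targeted gene's chromosome. Pathway lists name at most 4 called genes each. Members and lists were chosen with earlier results of these data known. Promoter windows are from RefSeq (GRCm38.p6).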

Additional observations from a re-analysis of the deposited data

Results flagged for a closer look

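In the 2 groups of 4 to 10 arrays, Dixon's test was run 56 times, once for each member and group, and marked 4 values, where chance alone marks about 1 group in 20. Pdia3 read 4.177 on Chop-/- DEN array B_14 while the other Chop-/- DEN livers had 11.67 to 12.18, and the same probe was below 0 on 2 wild-type DEN arrays of the same set. Dnajc10 was 10.17 on Chop-/- DEN array B_15, above the 9.10 to 9.40 of the other Chop-/- DEN livers, on the liver array whose profile came closest to the wild-type tumors. Pdia6 was 7.955 on wild-type DEN array C_19, below the 8.26 to 8.41 of the others. Os9 was 10.24 on Chop-/- DEN array C_23, below the 10.66 to 10.96 of the others.

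For Herpud1 the tumor change differed between genotypes by its own test (limma interaction -1.356 on the log2 scale, adjusted p = 0.00561), with both Chop-/- tumors below the lowest wild-type tumor. Without array C_24 the interaction was -1.04 (adjusted p = 0.128).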

How the results depend on the processing

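The count of members called was 7 in wild-type tumors against PBS livers, 7 against wild-type DEN livers, 10 in Chop-/- tumors against Chop-/- DEN livers and 1 between tumors of the 2 genotypes. With array weights these counts were 3, 13, 3 and 0, and with only the compared groups fitted they were 2 in the first and 0 in the last. Leaving out each array in turn gave 3 to 8, 5 to 10, 3 to 12 and 0 to 3, and 0 to 1 for the interaction of genotype and tumor. The range came from arrays A_08, B_12 and C_17 in the first, B_16 and C_24 in both comparisons of Chop-/- tumors, and C_24 in the interaction. Leaving out B_15 and C_24 together, chosen after seeing the data, left 0 members called between tumors and 0 in the interaction. The comparisons of whole livers had 0 members called under every alternative run. Of 26 calls of single members, 10 kept their side of the threshold under all alternatives other than left-out arrays, 4 kept it without every single array, and 0 reversed. The cause was not tested.

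Leaving out the 3 arrays on which Pdia3 read below 0, also chosen after seeing the data, turned its log2 fold change to -0.042 in Chop-/- tumors against DEN livers, 0.36 in wild-type DEN against PBS livers, 0.65 in Chop-/- DEN against PBS livers and -0.052 between genotypes in DEN livers. Signal near background limits Hyou1, Edem1 and Manf, whose probes were detected on 17, 15 and 4 arrays.

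The sample titles number replicates in each group. In no comparison with 3 or more pairs did every same-numbered pair deviate together (correlation over 0.1), so the numbers were not taken as a pairing. With the replicate number as a block, on the labelled log2 table, the counts were 7, 8, 8 and 1, with 1 in the interaction.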
